A study of Mus musculus with 6 samples.

Results

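The olfactory receptor genes of mouse chromosomes 10, 16 and 19 served as a set of genes that blood stem cells are not known to use. They were all protein-coding genes of the RefSeq annotation of GRCm38.p6 whose symbol is Olfr followed by a number, and no peak value enters that rule. They numbered 167 of the 21887 protein-coding genes placed on the autosomes, X and Y, with 68 on chromosome 10, 36 on chromosome 16 and 63 on chromosome 19. The question was how many peaks of acetylated histone H3 lysine 27 (H3K27ac) were called at such genes in each genotype. H3K27ac marks active promoters and enhancers and was mapped by CUT&RUN, in which an antibody brings a nuclease to the mark and the released DNA is sequenced. The hematopoietic stem cells came from bone marrow of mice that were wild type for Ppp2ca (3 libraries) or deficient in it (3 libraries, called knockout here). Ppp2ca encodes a catalytic subunit of the phosphatase PP2A. The sources used here do not give the part of the gene that was removed, the means or the cells of its removal, or the age of the animals. The series text speaks of 3 mice a group but no library carries an animal number, so the spread between libraries is all that an error below describes.

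Olfactory receptors are G protein-coupled receptors that detect odorants on sensory neurons of the nose, and they form the largest gene family of the mouse. Their genes lie in clusters, most have their coding sequence in a single exon, and each sensory neuron expresses a single allele of a single receptor while the other receptor genes are held in silent heterochromatin. Receptor genes have AT-rich promoters poor in CpG, and binding sites of the homeodomain protein Lhx2, which share the core TAATTA, are common in their regulatory sequences. Expression was not measured in this series, so the word silent rests on this background.

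The promoters of 3 of the 4 genes beside which a peak was called are shown with that of Rpl4, a gene for a protein of the large ribosomal subunit that had a peak in all 6 libraries. Each sequence holds 250 bases before and 50 bases after the RefSeq start (GRCm38.p6) and is written 5′ to 3′ on the gene's strand, with every CpG in capitals. The receptor promoters are those of the genes with a peak that the table holds, and of the ribosomal genes marked in all 6 libraries Rpl4 has the highest median −log10 q-value. They are not typical of their sets: the GC content of Rpl4 is below the ribosomal median of 56.8%, and that of 2 of the 3 receptor promoters is above the members' upper quartile of 38.7%. Olfr765 lies at chr10:129047012-129047311 (minus strand), Olfr789 at chr10:129486762-129487061 (plus strand), Olfr1419 at chr19:11871256-11871555 (minus strand) and Rpl4 at chr9:64173137-64173436 (plus strand).
Olfr765: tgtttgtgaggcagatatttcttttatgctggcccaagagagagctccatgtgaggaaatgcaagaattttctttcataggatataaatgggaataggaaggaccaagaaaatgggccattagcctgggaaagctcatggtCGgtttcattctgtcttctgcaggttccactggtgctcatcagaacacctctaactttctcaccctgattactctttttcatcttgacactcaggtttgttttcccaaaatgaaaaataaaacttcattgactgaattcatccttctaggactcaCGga
Olfr789: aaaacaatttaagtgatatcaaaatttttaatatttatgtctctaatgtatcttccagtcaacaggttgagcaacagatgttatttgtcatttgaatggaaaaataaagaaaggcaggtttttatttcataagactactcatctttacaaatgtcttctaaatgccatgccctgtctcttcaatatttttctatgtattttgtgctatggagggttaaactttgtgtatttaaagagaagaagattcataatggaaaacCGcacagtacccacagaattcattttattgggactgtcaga
Olfr1419: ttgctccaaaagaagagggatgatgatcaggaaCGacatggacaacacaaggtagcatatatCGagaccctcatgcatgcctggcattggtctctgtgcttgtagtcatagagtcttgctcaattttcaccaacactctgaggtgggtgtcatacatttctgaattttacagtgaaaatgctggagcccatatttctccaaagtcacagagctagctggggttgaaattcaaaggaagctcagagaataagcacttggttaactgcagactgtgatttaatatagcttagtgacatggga
Rpl4: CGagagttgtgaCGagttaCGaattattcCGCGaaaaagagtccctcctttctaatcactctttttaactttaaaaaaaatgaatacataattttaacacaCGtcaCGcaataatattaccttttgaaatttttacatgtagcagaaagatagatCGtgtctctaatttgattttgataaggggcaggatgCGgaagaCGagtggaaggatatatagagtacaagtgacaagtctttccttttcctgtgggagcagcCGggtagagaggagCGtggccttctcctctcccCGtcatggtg
The receptor promoters held 2, 1 and 2 CpG at a GC content of 41%, 31% and 43%, and Rpl4 held 13 CpG at 40.7%. No peak of any library overlapped the 3 receptor promoters shown, and a peak of each of the 6 libraries overlapped that of Rpl4. In Olfr765 and Olfr789 base 251, the annotated start, begins an ATG.

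A table of promoters from the same RefSeq release held 143 of the 167 genes. Their median GC content was 34.3%, against 57.0% for the 16552 promoters of genes other than olfactory receptors, and their median CpG number was 1 against 15. There was no CpG at all in 40.6% of them, against 3.59% of the others. The letters TAATTA, which read the same on both strands, occurred in 18.9% of these promoters, in 3.88% of the others and in 4.68% of all 17492 promoters of this length. In the 698 promoters of other genes with a GC content like that of the members (31.3% to 38.7%), the share was 15.3%, near that of the members. A match of these letters is a description and not a binding site. The annotated start was an ATG in 83.9% of the members' promoters against 5.95% of the others, and the length of 87.4% of the 167 genes was a multiple of 3 against 34.9% of the others. Most of these gene models are therefore coding spans without a UTR, and the shown window need not hold the start of transcription. No peak of any library overlapped any of the 143 promoters, and a count of 0 allows a share of up to 2.10%. Of the other genes' promoters, 18.1%, 20.7% and 18.4% had a peak in the wild-type and 39.5%, 33.8% and 39.3% did in the knockout libraries. Among the 698 of them with a GC content between the quartiles of the members (31.3% to 38.7%), 1.58% ± 0.379 (SD, n = 3 wild-type libraries) and 3.30% ± 0.517 (SD, n = 3 knockout libraries) had a peak. Of these GC-poor promoters, the wild-type share lay within the limit of 2.10% that the count of 0 allows at receptor promoters, and the knockout share lay above it. The part of base composition in the result was not tested.

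The 167 genes were short and stood apart from other genes. Their median length was 945 bp, within a range of 918 to 71199 bp, against 18765 bp for other protein-coding genes, and 20 exceeded 2000 bp. A window of the gene and 1 kb on each side, the unit of all counts below, met the window of no other protein-coding gene for any member. The nearest such gene was at a median of 186246 bp. Merged, the windows covered 0.665 Mb. The genes fell into 7 clusters in which neighbours were under 1 Mb apart. On chromosome 10 these were 10 genes from Olfr1358 to Olfr57 (78498183 to 79035802) and 58 genes from Olfr9 to Olfr827 (128989914 to 130211128). On chromosome 16 there were 2 genes, Olfr161 and Olfr15 (3592398 to 3839913), the lone Olfr19 (16673050 to 16673979), 8 genes from Olfr164 to Olfr171 (19285794 to 19625101) and 25 from Olfr172 to Olfr209 (58760152 to 59362240). All 63 genes of chromosome 19 lay in a single cluster from Olfr1417 to Olfr1505 (11828077 to 13919972).

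The peak lists of the 6 libraries differed in length and depth. Where 3 values are given for a genotype, they are those of replicates 1, 2 and 3 in that order. The 3 wild-type lists held 21917 to 29945 peaks and the 3 knockout lists 34016 to 50453. The genome-wide background, recovered from the deposited fold and p-value of each peak, was a pileup of 0.499, 0.584 and 0.498 fragments in the wild-type and 0.738, 0.465 and 0.827 in the knockout libraries. A unit of pileup is called a fragment here, which is an assumption because no caller parameter is given. At that background a summit of 3 fragments was enough for a peak in 5 libraries, and 4 were needed in knockout replicate 3. A q-value of at most 0.05 was reached by 15.7% to 16.7% of wild-type peaks and 43.9% to 66.6% of knockout peaks. Among the markers of hematopoietic stem and progenitor cells, 11 or 12 of 15 had a peak in each wild-type library and 10 to 13 in each knockout library; Runx1, Erg, Fli1, Tal1 and Lmo2 had a peak in all 6 and Ly6a in none. Of 7 olfactory neuron markers, 0 or 1 had a peak in each wild-type library and 1 or 2 in each knockout library, and Omp, the defining protein of mature olfactory neurons, had none in any. Of 6 erythroid markers 2 to 6 had a peak in a wild-type library and 5 in each knockout library, and of 7 lymphoid markers 1 to 3 and 0 to 4. For 7 myeloid markers the numbers were 2 to 4 and 3 to 5, and for 5 markers of stroma and endothelium 1 or 2 in each library. H3K27ac of few cells and weak H3K27ac of all cells cannot be told apart in such libraries.

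Nearly all receptor genes were without a peak. In wild-type replicates 1 and 2 a single window of the 167 held a peak, and in wild-type replicate 3 none did. Knockout replicate 1 had 2 windows with a peak, and knockout replicates 2 and 3 had none. The 6 libraries together thus held 4 peaks, 2 in each genotype, and the groups overlapped. At 163 of the 167 genes no library had a peak, and no gene had one in more than 1 library. All 4 peaks were 200 bp wide, the narrowest that any list holds, and none touched a gene itself. None had a q-value of 0.05 or less, and no peak of another library overlapped any of them.

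Olfr824, an odorant receptor gene of chromosome 10 (130126108 to 130127055), had the only such peak of wild-type replicate 1, 627 bp from the gene at 130127682 to 130127881. Its fold over the caller's background was 3.34, its −log10 q-value 0.415, and its summit held 4 fragments. In wild-type replicate 2 the peak lay 323 bp upstream of Olfr1419 on chromosome 19 (11871628 to 11871827), with a fold of 3.16, a −log10 q-value of 0.287 and a summit of 4 fragments. The 2 wild-type peaks thus rested on equal numbers of fragments. That of Olfr1419 lay beyond the promoter bases printed above, and the strand of Olfr824 is not in the tables used here.

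Knockout replicate 1 had its peaks in the large cluster of chromosome 10. The first was 345 bp downstream of Olfr765 (129045588 to 129045787), with a fold of 2.88, a −log10 q-value of 0.550 and a summit of 4 fragments. The other was 720 bp upstream of Olfr789 (129486093 to 129486292), with a fold of 2.30, a −log10 q-value of 0.0100 and a summit of 3 fragments, and was the farthest inside the 1 kb limit. In the list of its library 92.0% of peaks were stronger than the peak near Olfr789 and 67.7% were stronger than that near Olfr765. For the peaks near Olfr824 and Olfr1419 these shares were 45.6% and 46.4%. The first peak outside the limit was 1084 bp from Olfr15 in knockout replicate 3 (chromosome 16, 3840997 to 3841196), with a fold of 2.60 and a summit of 4 fragments.

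Expressed per length, the rate at the 167 genes was 1.50, 1.50 and 0 peaks per Mb of window in the wild-type and 3.01, 0 and 0 in the knockout libraries. The exact 95% Poisson interval, which covers counting error only, was 0.0381 to 8.38 peaks per Mb for a library with 1 peak and 0.364 to 10.9 for the library with 2. For a library with none, a count of 0 allows up to 4.51. The mean was 1.00 ± 0.868 in wild-type and 1.00 ± 1.74 in knockout libraries (SD, n = 3 each). With so few peaks a difference between the genotypes smaller than these limits was not detectable. The members were chosen as a group, so their sum was given no test.

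The same measure was higher at other genes. Protein-coding genes other than olfactory receptors held 14.4, 18.4 and 14.3 peaks per Mb in the wild-type libraries and 33.1, 24.3 and 25.03 in the knockout libraries. Every knockout library lay above every wild-type library, and the ratio of the means was 1.75. Restricted to chromosomes 10, 16 and 19 the means were 16.5 ± 2.72 (SD, n = 3) and 29.3 ± 5.58 (SD, n = 3). Relative to the other genes of its own library, the rate at the 167 receptor genes was 6.19% ± 5.48 in wild-type and 3.03% ± 5.24 in knockout libraries (SD, n = 3 each). Sequence outside all gene windows held 4.86 ± 1.29 peaks per Mb in wild-type and 6.82 ± 2.37 in knockout libraries (SD, n = 3 each), with overlapping groups. Even the rate of that sequence would have put 9.69 peaks into the members' windows over the 3 wild-type libraries and 13.6 over the 3 knockout libraries, where 2 and 2 were found. The rate at receptor windows was thus below that of the sequence between genes in all 6 libraries, but counting error limits this for a single library. The sequence between genes held 4.13, 6.35 and 4.09 peaks per Mb in the wild-type libraries and 9.55 in knockout replicate 1, all within the limits given above. Only in knockout replicates 2 and 3, at 5.19 and 5.74, did it exceed the limit of 4.51. Between the genes of chromosomes 10, 16 and 19 alone, the rates were higher. They were 5.41, 7.77 and 5.03 in the wild-type and 13.7, 7.48 and 8.56 in the knockout libraries. These exceeded the limits in wild-type replicate 3 and in every knockout library. At these rates the members' windows would have held 12.1 peaks over the wild-type and 19.8 over the knockout libraries.

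**Figure D1:**
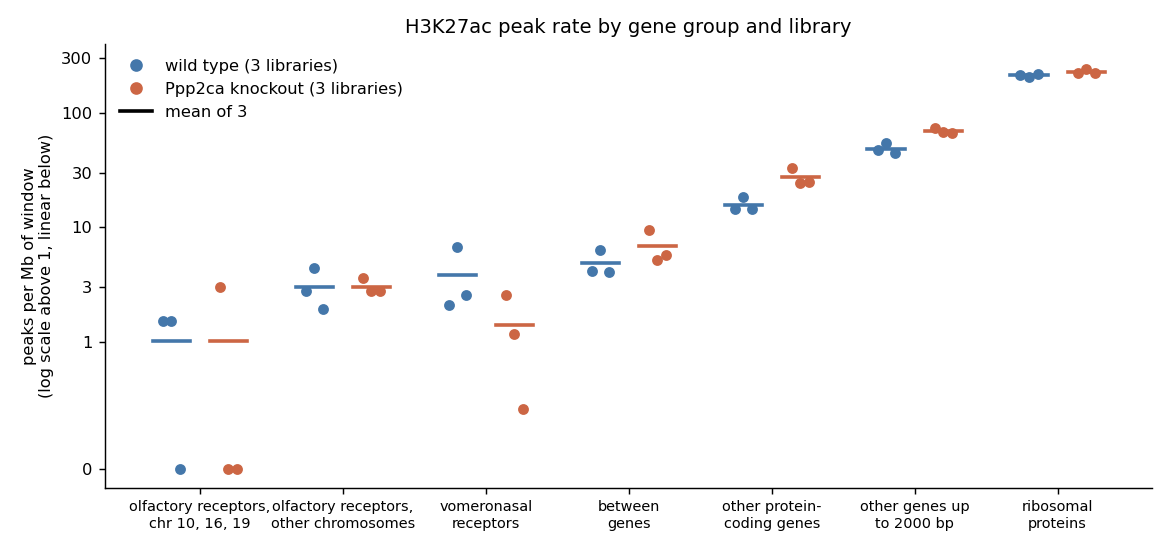
H3K27ac peaks per Mb of window (vertical axis, logarithmic above 1 and linear below) for 7 groups of genes or regions; each point is 1 library and each bar the mean of 3. The 167 receptor genes lie at 0 to 3.01 peaks per Mb in both genotypes, below the sequence between genes, while other protein-coding genes lie at 14.3 to 18.4 (wild type) and 24.3 to 33.1 (knockout).

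Calls per gene gave the same picture. Over all protein-coding genes, 67.1% had a peak in at least 1 library, against 4 of the 167 receptor genes (2.40%). With a q-value of 0.05 or less in at least 1 library the shares were 52.9% of all genes and 0 of 167. A peak in all 6 libraries was found at 27.9% of all genes and at 0 of 167. Genes with a peak in each knockout library but in no wild-type library made up 3.15% of all genes, and the reverse pattern 0.224%; neither occurred among the 167, where a count of 0 allows up to 1.80%. Short genes are the closer comparison, because a long window meets more peaks. Of 1626 other genes of at most 2000 bp, 24.0% had a peak in at least 1 library, 17.7% had one with a q-value of 0.05 or less, 7.26% had one in all 6 libraries and 1.35% were marked in the 3 knockout libraries alone. The last share is within what a count of 0 of 167 allows, so on that rule the receptor genes could not be told from short genes. These short genes held 48.6 ± 4.97 peaks per Mb in wild-type and 69.1 ± 3.51 in knockout libraries (SD, n = 3 each).

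The number of all genes with a peak in the window was 8880, 10290 and 8872 in the wild-type libraries and 12791, 11133 and 11353 in the knockout libraries. The knockout mean was higher by 2412 genes and each knockout library lay above each wild-type library, with a two-sided exact permutation p = 0.1, the smallest that 3 against 3 libraries allow. The 167 receptor genes contributed 1, 1 and 0 genes to the wild-type numbers and 2, 0 and 0 to the knockout numbers.

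The 939 olfactory receptor genes of the other chromosomes held more peaks but likewise in equal numbers. They had 10, 16 and 7 peaks in the wild-type libraries and 13, 10 and 10 in the knockout libraries, a sum of 33 in each genotype. This came to 3.02 ± 1.26 (SD, n = 3) and 3.02 ± 0.476 (SD, n = 3) peaks per Mb. With those of chromosomes 10, 16 and 19, all 1106 receptor genes had 35 peaks in each genotype, at 2.71 ± 1.17 and 2.71 ± 0.670 peaks per Mb (SD, n = 3 each). Relative to the other genes of the same library the rate at all receptor genes was 17.7%, 21.4% and 11.3% in the wild type and 10.5%, 9.57% and 9.28% in the knockout. The groups did not overlap on this scale, which divides by a rate that was itself higher in the knockout. The peaks differed in strength: 1 of the 35 wild-type peaks and 14 of the 35 knockout peaks had a q-value of 0.05 or less. The full lists differed in the same direction, so this contrast was not particular to receptor genes. Of all listed peaks, 16.6%, 15.7% and 16.7% met that limit for wild-type replicates 1 to 3. For knockout replicates 1 to 3 the shares were 43.9%, 47.4% and 66.6%. Olfr433, Olfr70 and Olfr1033, described below, each had such a peak in all 3 knockout libraries. The median summit of the peaks at all receptor genes held 4 fragments in each wild-type library, and 4, 5.5 and 5.5 in knockout replicates 1 to 3.

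Peaks at receptor genes were mostly seen once. Of all 1106 genes, 1059 had no peak in any library, 41 had one in a single library and 6 had one in 3 or more. The single-library genes were 7, 15 and 4 in the wild-type and 9, 4 and 2 in the knockout libraries, a sum of 26 against 15. The 4 members with a peak belong to them. Both genes with a peak in all 6 libraries lay on other chromosomes and near other genes. Olfr433 (chromosome 1, 174041933 to 174042936) is 10178 bp from Ifi205, a gene of the interferon-inducible p200 family. Its peaks had best folds of 3.80, 3.49 and 2.47 in the wild type and 3.57, 5.00 and 4.06 in the knockout. At Olfr70 (chromosome 4, 43695000 to 43700807), 2332 bp from Tmem8b, they were 3.70, 4.12 and 3.21 in the wild type and 3.57, 4.55 and 5.19 in the knockout. The peaks of a gene did not all overlap. At Olfr433 the peak of wild-type replicate 2 (174041381 to 174041580) met no knockout peak. At Olfr70 the peak of wild-type replicate 3 (43697087 to 43697286) met no other, while the other libraries had overlapping peaks. Summits at Olfr433 reached 6 fragments in the wild type and 12 in the knockout, more than at any of the 4 members.

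The other 4 recurrent genes were named after their values were seen. Olfr1404 (chromosome 1, 173215607 to 173216640) and Olfr1033 (chromosome 2, 86020640 to 86044808) were marked in each knockout library and in none of the wild type, the only such receptor genes. Olfr1404 is 4629 bp from Fcer1a, which encodes the alpha chain of the high-affinity IgE receptor, and none of its peaks had a q-value of 0.05 or less. Olfr1033 is 501705 bp from the nearest other protein-coding gene, Fads2b, and had a q-value of 0.05 or less in each knockout library, with folds of 4.79, 4.49 and 3.68 for the best peak. At neither gene did the knockout peaks all overlap. The Olfr1404 peak of knockout replicate 2 met no other. The Olfr1033 peaks of knockout replicates 1 and 2 did not meet, though each met a peak of knockout replicate 3. Olfr646 on chromosome 7 had a peak in 1 wild-type and 3 knockout libraries and Olfr1509 on chromosome 14 in 1 and 2. The 2 genes marked in the knockout alone are 0.213% of the 939, below the 3.15% of all genes.

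By chromosome the rates were uneven. The 27 receptor genes of chromosome 1 held 14.3 and 28.6 peaks per Mb on average in the wild type and the knockout, and the 24 of chromosome 4 held 11.9 and 15.8. Among them were genes named above, Olfr433 and Olfr1404 on chromosome 1 and Olfr70 on chromosome 4. The only other receptor genes of chromosome 1 with a peak were Olfr432 and Olfr248, each in 1 knockout library. The 36 genes of chromosome 16 held no peak in any library. On chromosome 9, with 129 receptor genes, the wild-type libraries had 3, 3 and 2 peaks and the knockout libraries none, a contrast picked out after the values were seen. The 68 genes of chromosome 10 had 1 wild-type and 2 knockout peaks, and the 63 of chromosome 19 had 1 and 0.

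Other chemosensory receptor genes also held fewer peaks per Mb than protein-coding genes other than olfactory receptors. The 353 vomeronasal receptor genes, which encode pheromone receptors, had 9, 29 and 11 peaks in the wild-type libraries and 11, 5 and 2 in the knockout libraries. The means were 3.81 ± 2.57 (SD, n = 3) and 1.40 ± 1.07 (SD, n = 3) peaks per Mb, the groups overlapped, and wild-type replicate 2 alone held 29 of the 49 wild-type peaks. In that library the rate was 106% of that of the sequence between genes, and in the others 8.13% to 62.7%. Taste type 2 and trace amine receptor genes, 50 in number, had a single peak, in knockout replicate 1, or 6.72 per Mb. Their windows covered only 0.149 Mb, so a library with no peak allows up to 20.2 per Mb. Ribosomal protein genes, as an active control, held 212 ± 6.57 peaks per Mb in wild-type and 228 ± 11.4 in knockout libraries (SD, n = 3 each), and 72, 71 and 70 of the 81 genes were marked in the wild type and 76, 75 and 78 in the knockout. Rpl4 had best folds of 9.12, 5.52 and 5.63 in the wild type and 6.98, 6.32 and 5.78 in the knockout. Rpl21, Rpl32 and Rpl19 likewise had a peak in all 6 libraries, with folds of 5.26 to 9.13.

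Genes that serve the receptors elsewhere were followed as a list of 25. A peak lay in the window of 15, 15 and 15 of them in the wild type and 18, 15 and 14 in the knockout, where the same share over all genes was 42.7% ± 3.73 (SD, n = 3) and 53.7% ± 4.11 (SD, n = 3). Those with a peak in all 6 libraries numbered 9. They were led by Cbx5, the gene of heterochromatin protein 1 alpha, Atf5, a stress-response transcription factor that also acts in receptor feedback, Ric8b, a chaperone of G alpha proteins, and Lbr, the lamin B receptor whose loss allows receptor heterochromatin to gather. Cbx5 had folds of 4.88, 5.00 and 3.93 in the wild type and 4.77, 5.56 and 4.50 in the knockout. The 7 with no peak in any library were Omp, the cyclic nucleotide-gated channel subunit Cnga2, the receptor transport proteins Rtp1 and Rtp2, Gfy, Stoml3 and the receptor regulator Lhx2. The transduction genes Gnal, the olfactory G alpha subunit, and Cnga4 had a peak in 2 wild-type and 3 knockout libraries, and Adcy3, the olfactory adenylyl cyclase, in 1 knockout library. Many of these genes are long, and a window grows with the gene.

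Around the 167 genes the rate was low up to 10 kb, without a steady trend, and higher from 20 kb on. Inside the genes no library had a summit, and from 0 to 1 kb lay the summits of the 4 peaks described above, 2 per genotype. From 1 to 5 kb the wild-type libraries had 1, 6 and 7 summits and the knockout libraries 3, 1 and 1, or 3.66 ± 2.52 (SD, n = 3) and 1.31 ± 0.907 (SD, n = 3) per Mb. These 19 peaks had a median summit of 4 fragments and at most 5, and no peak of another library overlapped any of them. A q-value of at most 0.05 was reached by 1, which lay 2536 bp downstream of Olfr1418 in knockout replicate 2 (chromosome 19, 11852233 to 11852459) with a fold of 4.09 and a q-value of 0.0146; it was singled out after its values were seen. From 5 to 10 kb the means were 3.00 and 1.50 summits per Mb in the wild type and the knockout, and from 10 to 20 kb 5.54 and 8.01. At 20 to 50 kb they reached 16.3 and 19.2, and at 100 to 200 kb 17.5 ± 4.27 (SD, n = 3) and 34.1 ± 8.37 (SD, n = 3), where the groups did not overlap. Up to 50 kb the groups thus overlapped in every bin, and from 50 kb every knockout library lay above every wild-type library. The median distance from a member to the nearest peak was 182, 75.6 and 87.2 kb in the wild-type and 161, 298 and 260 kb in the knockout libraries, whereas for other genes it was 6.99, 1.35 and 7.0 kb in the wild type and 0 kb, that is, a peak over the gene, in each knockout library.

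**Figure D2:**
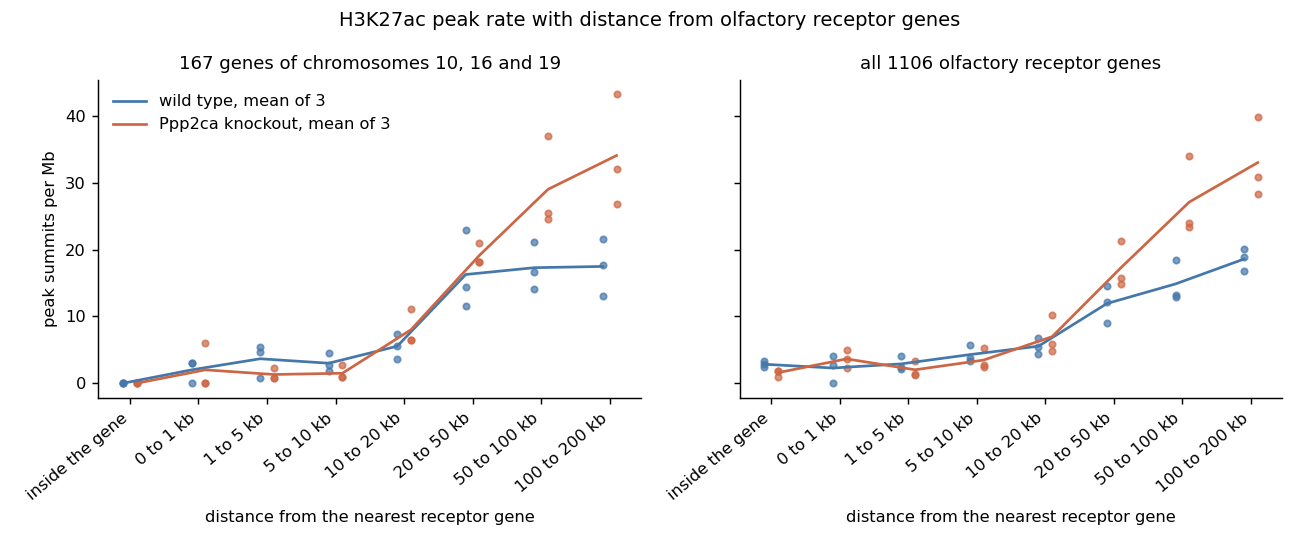
Peak summits per Mb (vertical axis) by distance from the nearest olfactory receptor gene (horizontal axis, bins in kb), for the 167 genes (left) and all 1106 (right); points are libraries and lines the mean of 3. On the left, rates do not exceed 6.01 per Mb up to 10 kb in any library and the genotypes part from 50 kb outward, with means of 17.5 and 34.1 per Mb at 100 to 200 kb.

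Of the peaks within the clusters, the chromosome 19 cluster held most, with 13, 29 and 25 in the wild-type and 36, 34 and 27 in the knockout libraries. Of these, 10, 17 and 12 and 18, 21 and 17 overlapped the windows of the 12 other protein-coding genes inside the cluster. The remaining 3, 12 and 13 and 18, 13 and 10 lay elsewhere, where 1.81 Mb of the span of 2.09 Mb lies. The genes marked in all 6 libraries were Patl1, an mRNA decay factor, Osbp, an oxysterol-binding protein, Mpeg1, the macrophage pore-forming protein perforin-2, the ubiquitin ligase Dtx4, Fam111a, Zfp91 and Lpxn, a leukocyte adaptor protein. The nearest of them to a receptor gene was Patl1, 15447 bp from Olfr1420, and the farthest Fam111a, 84410 bp from Olfr1442. Glyat, Gm4952 and Cntf had no peak in any library. No peak of any library with a q-value of 0.05 or less lay in a receptor window of this cluster, although 3, 9 and 5 such peaks in the wild type and 15, 15 and 18 in the knockout lay within its span.

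**Figure D3:**
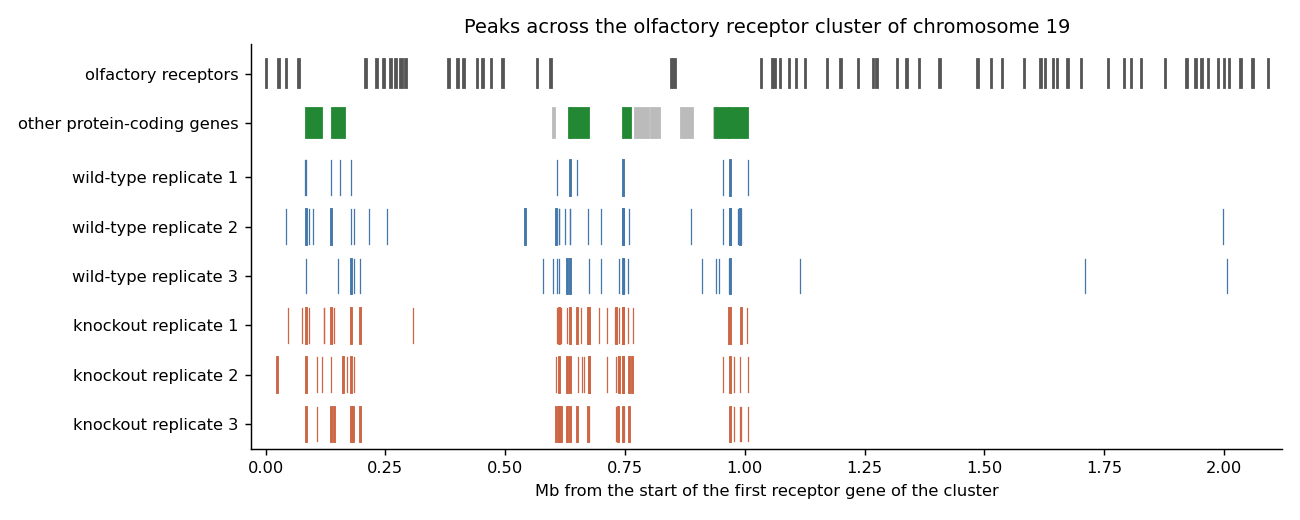
Map of the chromosome 19 cluster (horizontal axis, Mb from the first receptor gene): receptor genes, other protein-coding genes (green where a peak was present in all 6 libraries, grey otherwise) and the peaks of each library, thick where the q-value was at most 0.05. Many peaks lie around the marked genes and others apart from them, near 0.177 and 0.607 Mb in all 6 libraries. To the right of the last marked gene, Lpxn, receptor genes stand alone and peaks are few.

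The other clusters held fewer peaks each, over shorter spans. The 10 genes from Olfr1358 to Olfr57 share theirs with 5 other genes, of which Ilvbl, 27167 bp from Olfr1357, was marked in all 6 libraries, and its span held 1, 5 and 3 peaks in the wild type and 2, 1 and 1 in the knockout. The cluster of 58 genes on chromosome 10, with Gm10310 as its only other gene, had 2, 5 and 2 peaks in the wild type and 2, 0 and 0 in the knockout over its span of 1.22 Mb. The span of the 25 genes from Olfr172 to Olfr209 held 2 peaks in each wild-type library and none in a knockout library. That of the 8 genes from Olfr164 to Olfr171 held 1, 2 and 1 against 0, 1 and 0. Per length, the pair Olfr161 and Olfr15 had the densest span of the 7 clusters in every library. Between these 2 genes lie Mefv, the gene of pyrin, and Zfp263. The span held 2, 5 and 7 peaks in the wild type and 9, 6 and 7 in the knockout. None of the peaks in these spans of chromosome 16 lay in a receptor window. Zfp263 was marked in all 6 libraries and Mefv in 1 wild-type and 3 knockout libraries. Over the 4.65 Mb of all 7 clusters that lie outside the windows of other genes, summits numbered 9, 26 and 22 in the wild type and 24, 17 and 14 in the knockout, or 4.09 ± 1.91 (SD, n = 3) and 3.94 ± 1.10 (SD, n = 3) per Mb. The groups overlapped.

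How the genotypes compared at receptor genes depended on which peaks were taken from lists of unequal length and strength. With the 21917 peaks of best p-value from each list, a choice extended from the 167 genes to other sets once the data had been seen, the 167 genes kept 1, 1 and 0 peaks in the wild type and none in the knockout, and all 1106 receptor genes had 11, 15 and 7 against 4, 8 and 4, sums of 33 and 16 with overlapping groups. With 5 kb on each side of all 1106 genes the equal lists gave 30, 37 and 28 peaks against 9, 15 and 12, or 2.52 ± 0.376 and 0.954 ± 0.239 per Mb (SD, n = 3 each), without overlap. On the same basis other protein-coding genes had 1.11 times the wild-type rate in the knockout and sequence between genes 0.799 times. With peaks at a q-value of 0.05 or less the direction was the other way, with 5 against 34 peaks at all receptor genes and 5 kb around them, a ratio of 5.01 at other genes and 6.10 between genes. With all peaks there were 109 and 87. Which genotype had the higher rate at receptor genes thus changed with the choice of peaks, and the part of depth and background in this was not tested.

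**Figure D4:**
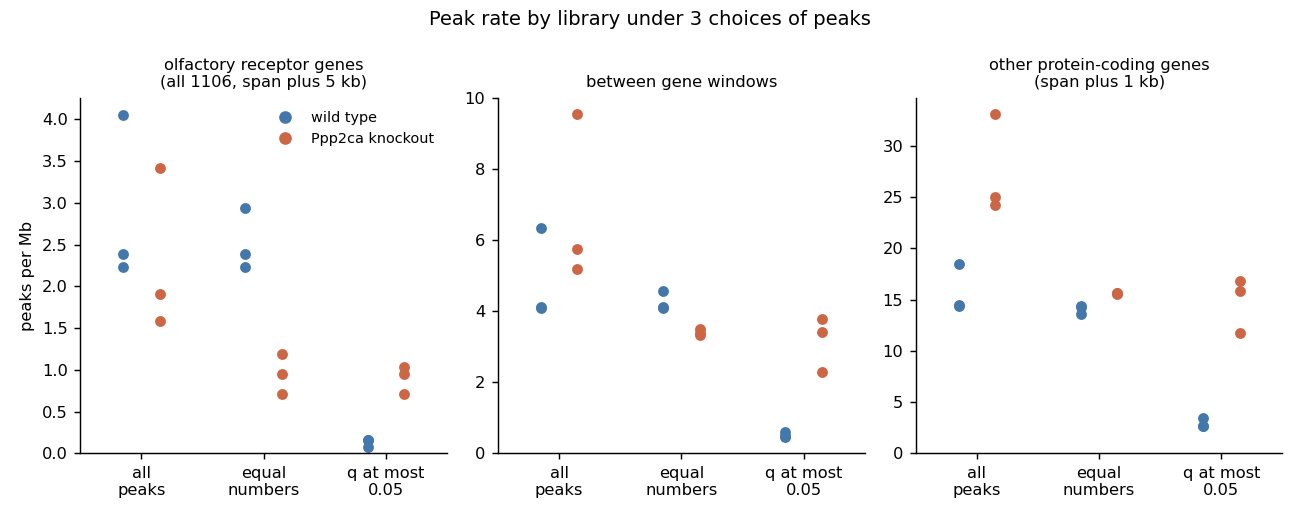
Peaks per Mb by library (points) for all receptor genes with 5 kb on each side, for sequence between gene windows and for other protein-coding genes, each with all peaks, with 21917 peaks per list and with peaks at a q-value of 0.05 or less. At receptor genes the knockout lies below the wild type with equal lists (means 0.954 and 2.52) and above it at a q-value of 0.05 or less (means 0.901 and 0.133).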

How the data were processed

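H3K27ac CUT&RUN peaks of 6 libraries were analysed, 3 per genotype as titled. The submitters' processing notes name Trimmomatic, BWA and MACS2, and further deepTools, HOMER and ChIPseeker, with GRCm38/mm10. The sources used here give no version or parameter, nor whether a control library was used and how reads that map to several places, which occur in families of near copies, were treated. The deposited lists, 1 per library, give a score, a ratio (fold enrichment at the summit), a −log10 p-value, a −log10 q-value and the summit of each peak, all by the authors' caller. The lowest −log10 p-value was about 2.01 in each list. Fold equals (pileup + 1)/(background + 1) and p a Poisson tail; solving both gave whole pileups for at least 99.96% of peaks (−log10 p-value under 15, tolerance 0.002). Read totals are not in the lists, and this background stands in for depth.

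Windows were gene spans plus 1 kb; 1 bp of overlap counted. Rates are peaks per Mb of merged windows with exact Poisson 95% intervals, and 3 counts stand for the limit of a count of 0. The number of all genes marked was compared by a two-sided exact permutation test over 20 assignments. Python 3.11.15, numpy 2.4.6, pandas 2.3.3 and scipy 1.17.1 were used. The counting was tested on simulated data. The members and lists were chosen with earlier results of these data known. Named were all members with a peak, the ends of each cluster, the peaks nearest the limit and up to 4 genes per comparison list marked in all 6 libraries; others are said to be chosen later. Alternatives were q-value limits, equal list lengths, overlap rules, flanks, single chromosomes, all receptor genes, leaving out each library and a replicate block; for region sets other than the members, equal lists, the q-value limit and the GC-matched promoters were chosen after seeing the data. Same-numbered libraries of the 2 genotypes had correlated deviations of -0.0523, -0.0811 and 0.0519, so the numbers were not taken to pair them.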

Additional observations from a re-analysis of the deposited data

How the results depend on the processing

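The wild-type mean of 1.00 peaks per Mb at the 167 genes became 0 at a q-value limit of 0.05, 0 with a −log10 q-value of at least 5, 0 within the gene spans alone, 0 on chromosome 16 alone, 2.75 with 5 kb on each side and 2.71 over all olfactory receptor genes. The knockout mean of 1.00, whose SD of 1.74 is larger, moved as much: it became 0 at both q-value limits, within the gene spans alone, on chromosome 16 or 19 alone, with equal numbers of peaks per library and without knockout replicate 1, which holds both peaks, and 2.76 on chromosome 10 alone, 1.20 with 5 kb on each side and 2.71 over all olfactory receptor genes. Their difference, knockout minus wild type, of 0 became -1.55 with 5 kb on each side, 1.38 on chromosome 10 alone and -1.59 on chromosome 19 alone. The count of 0 knockout-only genes became 2 over all olfactory receptor genes. The cause of these shifts was not tested; within the 1 kb windows the rates rest on 4 peaks. No member lay near enough to another gene to be left out. The number of all genes marked was higher in the knockout by 2412, by 1349 to 6818 in the other 7 settings (exact permutation p = 0.1 in each) and by 1896 to 2883 when each library was left out (exact permutation p = 0.2, the smallest possible). With the replicate block the difference was 2412 (exact permutation p = 0.25, the smallest possible). The 0.665 Mb of window limits the member rates: a library with no peak allows up to 4.51 per Mb.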
